A study of Mus musculus with 32 samples.

Results

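The genes described here build or move along the cytoskeleton: tubulins, kinesins and dyneins, actin-binding proteins, myosin chains, the spectrin-based membrane skeleton and intermediate filaments. They were chosen by words in the title of the array's probes ("actin", "tubulin", "kinesin", "spectrin", "keratin", "lamin A" and others of this kind), with titles of expressed sequence tags, kinases and receptors left out. This rule found 39 of the 5163 cDNA probes of the array, for 38 genes, since kinesin light chain 1 (Klc1) was spotted as 2 probes. Of the 38 genes, 35 are cytoskeletal. The titles of Smarcb1, a chromatin remodeller, and of the transcription factors Sp3 and Rfxank only hold one of the words. No probe for a cytoplasmic actin gene itself was among the members. A further 18 probes with these words, whose titles name expressed sequence tags, were left out.

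RNA came from prefrontal cortex of adult mice of selected generation 26, bred from a heterogeneous stock for severe (WSP, withdrawal seizure-prone) or mild (WSR, withdrawal seizure-resistant) convulsions after ethanol. Females and males of each line spent 72 h in ethanol vapor (EtOH) or in air chambers (Air) and were sampled at 0 h of withdrawal. EtOH mice were first injected with ethanol at 1.5 g/kg, or with a higher dose in the WSP-2 line. All mice, Air controls included, received 68.1 mg/kg pyrazole, which blocks alcohol dehydrogenase, so no group was free of it. Each selection direction had 2 replicate lines, and each array carried 33P-labelled cDNA from the pooled RNA of 2 animals. The 8 groups of sex, line and treatment held 4 arrays each, named by replicate line and then pool, so that 1-2 stands for line 1 and pool 2. The header of female WSP EtOH 1-2 carries a name that ends in 1, and its pool number was taken from its label. Female WSR EtOH 2-1 was left out, as its submitters had done, and 31 arrays remained.

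The cytoskeleton gives neurons and glia their shape and carries their traffic. Microtubules, polymers of alpha and beta tubulin, are the tracks on which kinesins and dynein haul cargo along axons and dendrites, while actin filaments fill the growing tip and the dendritic spine, where capping protein and cofilin set their length. Spectrin and its partners form a lattice under the membrane, and intermediate filaments, including the nuclear lamins, bear mechanical load.

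The arrays differed in how many members they detected. Each file gives 1 background reading for the whole array, and a probe is called above background where its signal exceeds that reading. This reading was 8.25 to 41.1 on the 16 male arrays and 10.3 to 66.8 on the 4 pool 2 arrays of female WSP. It was 88.4 to 283 on the 4 pool 1 arrays of female WSP and 430.0 to 769 on the 7 female WSR arrays. Between 14 and 30 of the 39 members were above background on male arrays and 25 to 30 on female WSP pool 2 arrays, against 5 to 17 on pool 1 arrays and 2 to 13 in female WSR. Over all spots, 40.9 to 71.7% were above background on male arrays and 66.8 to 82.5% on female WSP pool 2 arrays, against 15.8 to 49.3% on pool 1 arrays and 17.3 to 36.2% in female WSR. Background thus moved with sex and line, and the differences between the sexes and between the lines in females are given with this in view. A member below background is not shown to be unexpressed, and fewer cells of a type cannot be told apart from less RNA per cell in this tissue. Of the 39 members, 30 passed the filter on dim probes (mean log2 signal above the 25th percentile) and were tested among 3872 probes.

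**Figure D1:**
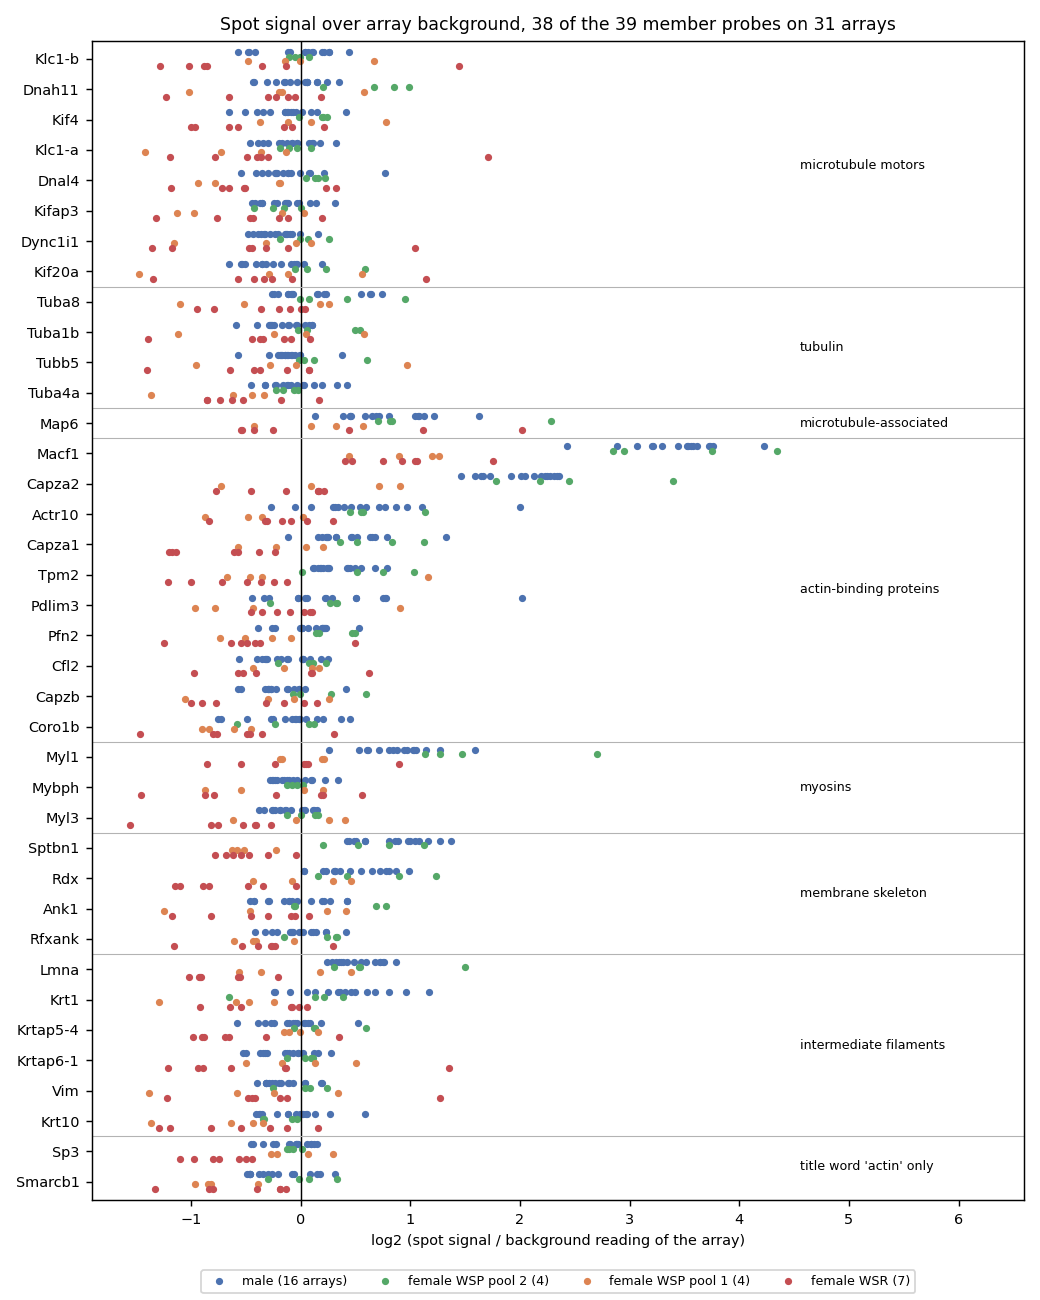
Spot signal divided by the background reading of its array, on a log2 axis, for 38 of the 39 member probes (rows, grouped by role) on 31 arrays (points, coloured by set of arrays); the vertical line marks a signal equal to background. Macf1 lies to the right of the line on all 31 arrays, while Sptbn1, Rdx, Lmna, Capza1 and Tpm2 lie to its left on all 7 female WSR arrays.

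Of the actin-binding members, Macf1, a giant linker of actin to microtubules, was above background on 31 of 31 arrays. Capza2, an alpha subunit of the capping protein that blocks the barbed end of actin filaments, was above background on 27 arrays. Its relative Capza1 was so on 21 arrays, as were tropomyosin 2 (Tpm2), which lies along actin filaments, and Actr10, a subunit of the dynein cofactor dynactin. For Capzb, the beta subunit that pairs with either alpha subunit, the number was 7. Profilin 2 (Pfn2), which delivers actin monomers, was detected on 17 arrays, cofilin 2 (Cfl2), which severs filaments, on 14, and the Z-line protein Pdlim3 on 18. Detection in this class was therefore far from even.

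Among the microtubule members, only Map6, which stabilises neuronal microtubules, was above background on most arrays, 26 of 31. The beta tubulin Tubb5 was above background on 7 arrays and on 1 of 16 male arrays. The alpha tubulins Tuba8, Tuba1b and Tuba4a were so on 15, 10 and 7 arrays. Of the motors, the axonemal dynein heavy chain Dnah11 reached 14 arrays and the 2 probes for the cargo-binding light chain Klc1 reached 13 and 7. The dynein light chain Dnal4 and the chromosome-associated kinesin Kif4 each reached 10. The mitotic kinesin Kif20a, the kinesin-2 subunit Kifap3 and the cytoplasmic dynein intermediate chain Dync1i1 reached 7, 6 and 5, and none of these 3 passed the dim filter. Most probes for microtubule proteins thus gave signals near the array background.

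In the membrane skeleton, radixin (Rdx), which ties actin to membrane proteins, was above background on 22 arrays and the brain beta spectrin Sptbn1 on 20. The erythroid ankyrin Ank1, which links the lattice to membrane proteins, was so on 11. Among intermediate filament titles, lamin A (Lmna) of the nuclear envelope was above background on 22 arrays. Vimentin (Vim), a filament of glia and mesenchymal cells, was above background on 9, and the epidermal keratins Krt1 and Krt10 on 17 and 8. The fast-muscle myosin light chain Myl1 was above background on 26 arrays, whereas the ventricular chain Myl3 and the thick-filament protein Mybph were each so on 11. Sptbn1, Rdx, Lmna and Tpm2 were above background on 16 of 16 male arrays, Capza1 on 15 of 16, and each of the 5 on 0 of 7 female WSR arrays. The muscle marker titles creatine kinase and troponin C, looked up because the dissection could carry muscle, were above background on 13 and 8 arrays.

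The first comparison asked which members differed between EtOH and Air mice of 1 sex and line, the contrast that the study's design names. By limma with Benjamini-Hochberg adjustment over the 3872 probes (threshold 0.05), 0 of the 30 tested members passed in female WSP, where 0% of all probes passed, and 0 of 30 in female WSR, where 0.232% did. The counts were also 0 of 30 in male WSP and in male WSR, with 0% of all probes in each. At an unadjusted p under 0.05 there were 2, 2, 1 and 0 members, against 142, 571, 35 and 28 of all probes. Averaged over the 4 sets the count was 0 of 30 (background 0%), with 0 members and 202 of all probes at an unadjusted p under 0.05. No member passed for the response of WSP minus WSR (background 0%) or of females minus males (background 0%). At an unadjusted p under 0.05 there were 2 and 1 members, against 201 and 154 of all probes. The median member difference over the 4 sets was -0.12, against 0.01 over all probes, and 18 of the 30 members lay below 0.

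The members with the smallest unadjusted p were these, none past the threshold. In female WSR, Map6 measured 6.23, 4.19, 9.50 and 7.19 (log2 normalized signal, Air 1-1, 1-2, 2-1 and 2-2) and 5.01, 4.81 and 4.37 in EtOH (1-1, 1-2 and 2-2). The Air arrays spanned the EtOH values on either side, with 1 of them lower than all 3. Map6 was above background on 0 of 3 EtOH arrays, and its fitted difference was -2.05 ± 0.66 (SE; limma adjusted p = 0.151). Without Air 1-2 it passed the threshold (-2.96, limma adjusted p = 0.00434). As a bound on the group means alone, it was at least 2.53-fold lower in EtOH, with Air 2-1 included. On Air 2-1 the 4 adjacent spots rose as well (median 2.41), while those on Air 1-2 fell (median -2.58). With the deviation of nearby spots subtracted, as described below, Air read 5.15, 4.76, 6.29 and 5.23 and EtOH 5.02, 4.81 and 4.90.

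The first Klc1 probe measured 4.12, 5.17 and 9.04 in female WSR EtOH (1-1, 1-2 and 2-2) and 4.35, 4.44, 4.30 and 3.91 in Air. EtOH array 2-2 stood far above the rest and EtOH array 1-1 lay inside the Air range. The difference was 1.86 ± 0.64 (limma adjusted p = 0.178). Without EtOH 1-1 it passed (2.86, limma adjusted p = 0.00929). The probe was above background on 0 of 4 Air arrays and, of the EtOH arrays, only on 2-2. As a bound on the group means alone, it was at least 1.81-fold higher in EtOH. That bound includes EtOH 2-2, where the 8 adjacent spots rose as well (median 3.73), while those on EtOH 1-1 fell (median -2.74). With the deviation of nearby spots subtracted, EtOH read 5.04, 5.13 and 6.21 and Air 4.46, 4.69, 4.97 and 4.53. The second Klc1 probe, on the same arrays, differed by -0.02 ± 0.81.

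In female WSP, Kif4 measured 4.78, 4.63, 8.21 and 4.65 in EtOH and 4.23, 4.65, 4.56 and 3.75 in Air (1-1, 1-2, 2-1 and 2-2). EtOH array 2-1 was high, and the other 3 lay between 4.63 and 4.78, at the upper end of the Air values. The difference was 1.27 ± 0.58 (limma adjusted p = 1.00). Krt1 measured 3.44, 2.66, 3.22 and 4.60 in EtOH and 4.56, 4.45, 3.94 and 4.72 in Air, with EtOH 2-2 inside the Air range (-0.94 ± 0.46).

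In males the arrays of a group lay closer together. The standard errors of the main fits come from 1 spread shared by all 8 groups, so they do not show this. Dnal4 in male WSP measured 3.85, 4.15, 3.54 and 3.16 in EtOH and 4.34, 5.42, 4.76 and 4.07 in Air (1-1, 1-2, 2-1 and 2-2). The groups overlapped by 1 array on each side. Dnal4 was above background on 0 of 4 EtOH arrays and on 2 of 4 Air arrays (-0.97 ± 0.42, limma adjusted p = 1.00). As a bound on the group means alone, it was at least 1.13-fold lower in EtOH. In male WSR, Pdlim3 measured 5.20, 5.64, 5.58 and 4.97 in EtOH and 4.22, 3.73, 5.41 and 3.47 in Air, a difference of 1.14 ± 0.58. Air array 2-1 lay among the EtOH values. For the mean response the smallest p belonged to Dnah11 (-0.52 ± 0.26, limma adjusted p = 0.858).

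**Figure D2:**
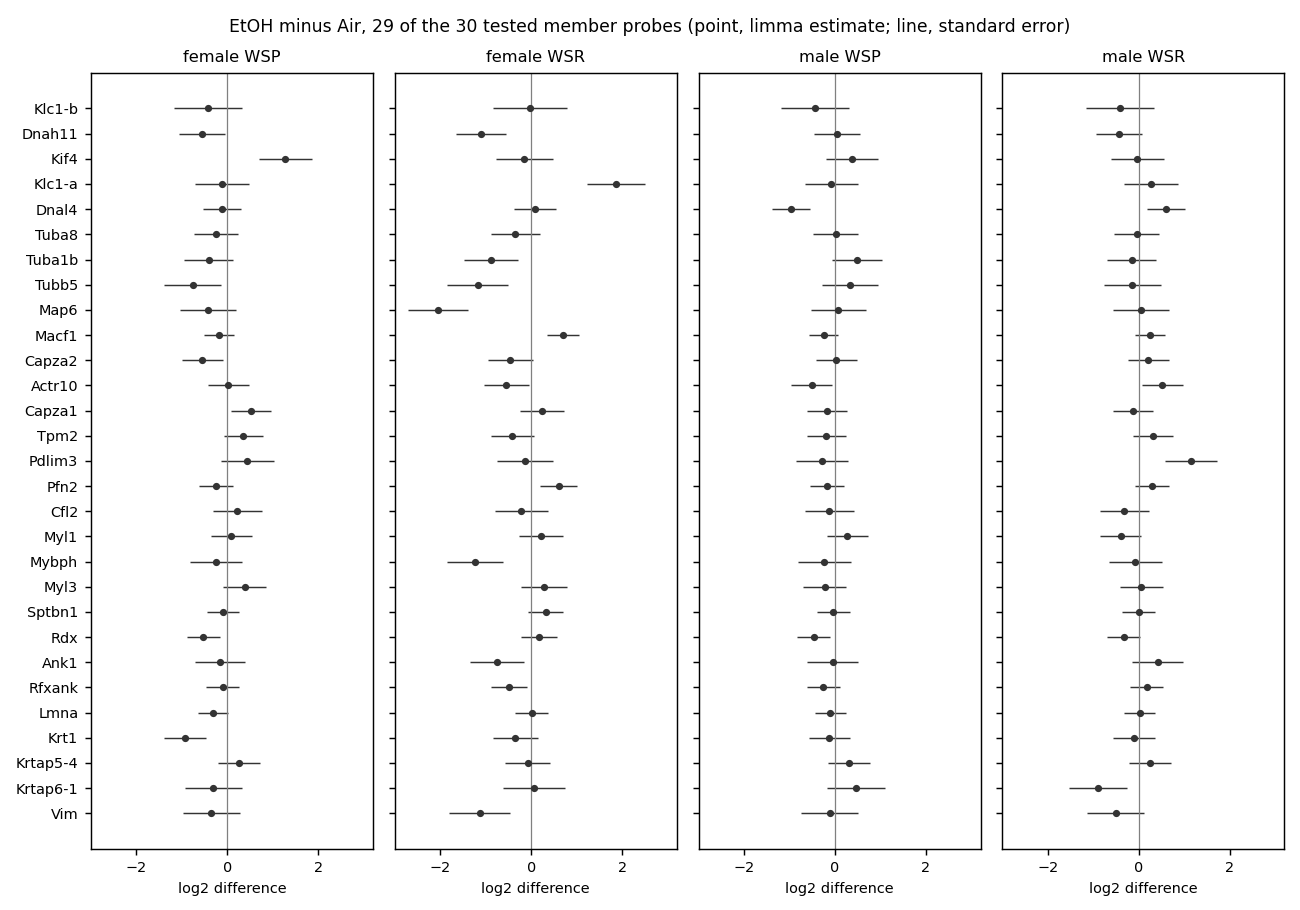
Difference between EtOH and Air (log2, x axis) for 29 of the 30 tested member probes (rows, in order of role) in each sex and line; points are limma estimates and lines their standard errors. The estimates for Map6 and the first Klc1 probe in female WSR lie farthest from 0, at -2.05 and 1.86, and no member passed the threshold in any panel.

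The second comparison set WSP against WSR mice within a sex and treatment, the question of what differs between the selected lines. Each side held only 2 replicate lines, with up to 2 pools of each. The p-values refer to variation among pools, so they do not test a difference among independently selected lines. In Air females, 2 of the 30 members passed, both higher in WSP, which is 6.67% of the members against 3.31% of all probes (2.43% higher). Rdx measured 4.96, 5.76, 5.55 and 5.54 on the WSP arrays (1-1, 1-2, 2-1 and 2-2) and 4.38, 3.24, 5.15 and 3.30 on the WSR arrays. WSR 2-1 reached into the WSP range. It was above background on 0 of 4 WSR arrays and on 3 of 4 WSP arrays, which makes it at least 1.15-fold higher (1.43 ± 0.36, limma adjusted p = 0.026). Lmna measured 4.26, 5.28, 5.55 and 5.78 in WSP and 4.23, 3.08, 4.79 and 3.68 in WSR, where it too was above background on 0 of 4 arrays (1.27 ± 0.34, limma adjusted p = 0.0332). WSP 1-1, of high background, lay inside the WSR range, and the bound on the fold was under 1.

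Both calls depended on single arrays. Leaving out any of WSP 1-2, WSP 2-2, WSR 1-2 or WSR 2-2 brought both adjusted p-values to between 0.0773 and 0.163, and leaving out WSP 2-1 that of Lmna to 0.0559. With background class (reading above or below 80) as a term, the differences were 1.42 for Rdx (adjusted p = 0.0744) and 1.05 for Lmna (adjusted p = 0.162). Class could be separated from line only through the 4 WSP pool 2 arrays, since all WSR arrays had high readings. In Air males, all of low background, 0 of 30 members passed (background 0%). At an unadjusted p under 0.05 there were 0 members, against 83 of all probes. Rdx and Lmna there differed by 0.08 ± 0.36 and -0.05 ± 0.34. Males measured 4.89, 5.38, 6.34 and 5.59 for Rdx in WSP and 5.91, 5.36, 5.45 and 5.16 in WSR. The difference of the line differences between the sexes was 1.35 ± 0.52 for Rdx and 1.32 ± 0.48 for Lmna, with limma adjusted p of 0.318 and 0.295. For this difference 0 of 30 members passed (background 0%), with 4 members and 377 of all probes at an unadjusted p under 0.05.

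In EtOH mice, 0 of 30 members differed between the lines in females (background 0.0517%) and 0 of 30 in males (background 0%). At an unadjusted p under 0.05 there were 6 and 0 members, against 507 and 168 of all probes. EtOH mice of WSP-2 had received the higher ethanol dose, so dose differed in part along with line. In females the first Klc1 probe had the smallest p. It measured 4.25, 4.13, 2.98 and 3.63 in WSP against the WSR values given above, and was above background on 0 of 4 WSP and 1 of 3 WSR arrays. Its fitted difference was -2.36 ± 0.64 (limma adjusted p = 0.121). Without WSR EtOH 1-1 it passed (fitted difference -3.36, limma adjusted p = 0.00251). As a bound on the group means alone, it was at least 2.60-fold lower in WSP. That bound includes WSR 2-2, where the 8 adjacent spots rose as well (median 3.73). The second Klc1 probe had means of 4.32 in WSP and 4.59 in WSR. Capza1 was above background on 4 of 4 WSP and 0 of 3 WSR arrays (1.30 ± 0.48, adjusted p = 0.199). For the difference of these line differences between the sexes, 0 of 30 members passed (background 0.0258%). There were 3 members and 322 of all probes at an unadjusted p under 0.05.

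The third comparison set females against males within a treatment. In Air, 6 of the 30 members were called lower in females and 0 higher, 20% of the members against 15% of all probes (11.6% lower). In EtOH, 4 were called lower and 0 higher, 13.3% of the members against 9.89% of all probes (8.19% lower). The shares of members were thus close to those of the array as a whole. Of the 8 tested actin-binding members, 3 were called lower in Air (Capza2, Capza1 and Macf1), as were 2 of 5 in the membrane skeleton (Sptbn1 and Rdx) and 1 of 5 intermediate filament members (Lmna). Classes follow title words, so the membrane skeleton counts Rfxank and the intermediate filaments count the keratin-associated Krtap6-1 and Krtap5-4. Capza2, Sptbn1, Lmna and Krt1 were called lower in EtOH. No microtubule motor, tubulin or myosin member was called in either treatment.

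Sptbn1 ranged from 3.70 to 5.63 with a median of 4.14 (log2) on the 8 female Air arrays and from 5.54 to 6.20 with a median of 5.85 on the 8 male Air arrays. In EtOH, 7 female arrays ranged from 4.03 to 5.21 (median 4.57) and 8 male arrays from 5.39 to 6.13 (median 5.94). The groups did not overlap in EtOH, and in Air only the highest female array, WSP 1-2, of low background, entered the male range. Sptbn1 was above background on 2 of 8 female Air arrays and 2 of 7 female EtOH arrays, so most female values lay at or under background and the fitted differences are given without a fold. They were -1.38 ± 0.25 in Air (limma adjusted p = 0.000693, lower than the male mean on 8 of 8 arrays) and -1.24 ± 0.27 in EtOH (adjusted p = 0.00396, 7 of 7 arrays).

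Capza2 ranged from 4.16 to 7.13 (median 5.89) in Air females and from 6.67 to 7.37 (median 7.09) in Air males. In EtOH it ranged from 4.27 to 6.88 (median 5.70) in females and from 7.01 to 7.78 (median 7.15) in males. The sexes overlapped in Air and not in EtOH. It was lower in Air females (-1.15 ± 0.32, limma adjusted p = 0.0157, 7 of 8 arrays) and in EtOH females (-1.77 ± 0.33, adjusted p = 0.00143, 7 of 7 arrays). In Air it was above background on 4 of 4 female WSP and 3 of 4 female WSR arrays. In EtOH it was so on 3 of 4 and 1 of 3. Some female values thus lay under background, and the differences are given without a fold. With cyclic loess in place of quantile normalisation the Air difference was -0.06 (adjusted p = 0.906) and the EtOH difference -0.67 (adjusted p = 0.127). With background class as a term they were -0.18 (adjusted p = 0.913) and -0.80 (adjusted p = 0.686).

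Lmna ranged from 3.08 to 5.78 (median 4.53) in Air females and from 4.999 to 5.91 (median 5.41) in Air males. In EtOH it ranged from 3.48 to 5.24 (median 4.59) in females and from 5.11 to 5.87 (median 5.40) in males. The sexes overlapped in both treatments. It differed by -0.88 ± 0.24 in Air (limma adjusted p = 0.0132) and -0.99 ± 0.25 in EtOH (adjusted p = 0.0127). Macf1, the member detected on every array, ranged from 6.69 to 8.51 (median 7.27) in Air females and from 7.85 to 8.58 (median 8.30) in Air males, and differed by -0.84 ± 0.23 (adjusted p = 0.013). In EtOH it differed by -0.58 ± 0.24 and did not pass (adjusted p = 0.118). Capza1 in Air (-1.05 ± 0.31, adjusted p = 0.0235), Rdx in Air (-0.78 ± 0.26, adjusted p = 0.0404) and Krt1 in EtOH (-1.03 ± 0.34, adjusted p = 0.0493) lay nearer the threshold. The Capza1 call was lost when any 1 of 5 Air arrays was left out: 1-1 and 2-1 of WSP females, 2-1 of WSR females, 2-1 of WSP males and 1-1 of WSR males (adjusted p from 0.0519 to 0.0701). The Rdx call was lost without any 1 of 10 of the 16 Air arrays (up to 0.0972). It was kept only without females WSP 1-2 or 2-2, females WSR 1-1 or 2-1, male WSP 1-1 or male WSR 2-2. The Krt1 call was lost without any 1 of 11 of the 15 EtOH arrays (up to 0.129), and was kept only without female WSP 2-2, female WSR 1-1, male WSP 2-2 or male WSR 1-2.

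**Figure D3:**
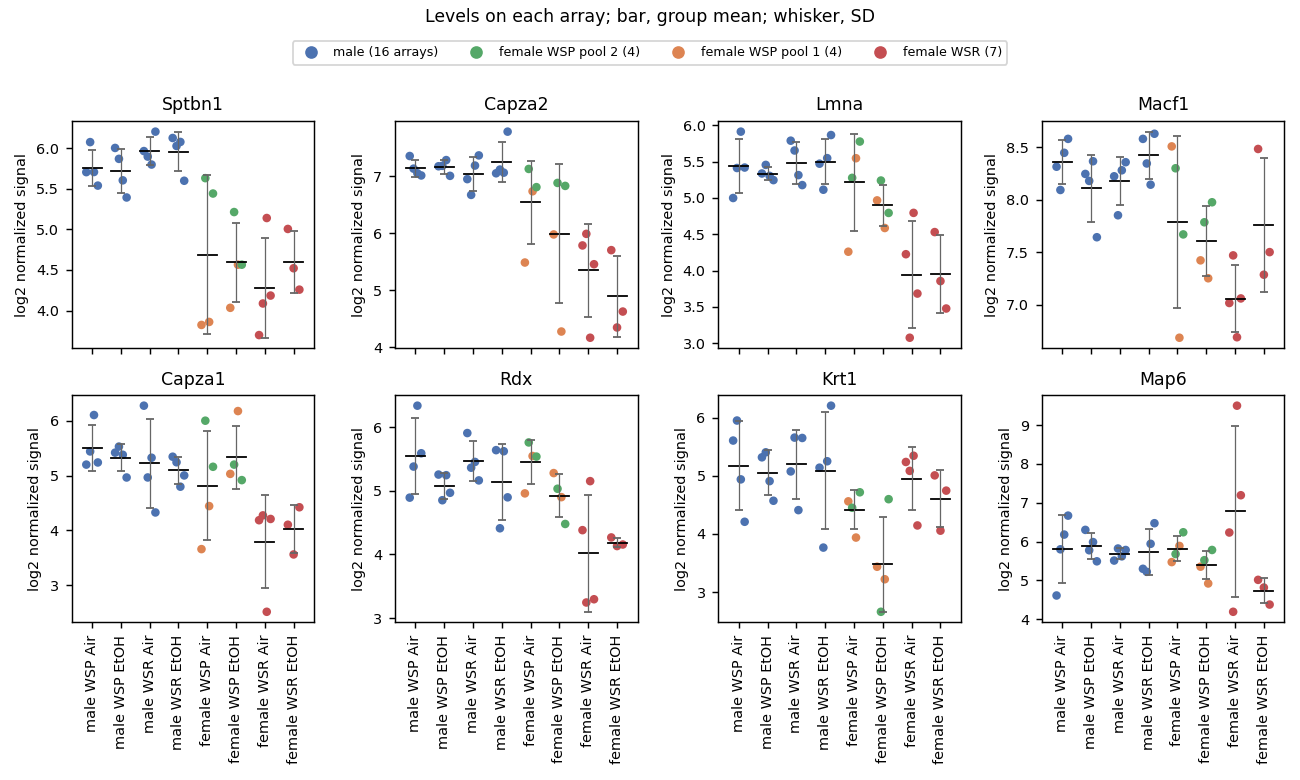
Log2 normalized signal (y axis) on each array in the 8 groups for 7 members called between the sexes and for Map6; points are arrays coloured by set, bars group means and whiskers SD. For Sptbn1 and Capza2 the female WSP pool 2 arrays (green) reach 5.63 and 7.13 in Air, and the pool 1 and female WSR arrays lie lower.

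Within the female WSP arrays, Sptbn1 and Capza2 were higher on the pool of low background. In Air, Sptbn1 measured 5.63 and 5.44 on the pool 2 arrays, of low background, and 3.82 and 3.86 on the pool 1 arrays, of high background. Capza2 measured 7.13 and 6.81 on the former and 5.48 and 6.74 on the latter, so that 1 pool 1 array came close to pool 2. In EtOH, Sptbn1 measured 5.21 and 4.57 on pool 2 and 4.03 and 4.57 on pool 1. Set against the 4 male WSP Air arrays, all of low background, the 2 pool 2 arrays differed by -0.25 ± 0.29 for Sptbn1 (95% interval -0.92 to 0.42) and by -0.22 ± 0.24 for Capza2 (-0.78 to 0.34). For Lmna, Rdx and Capza1 that difference was 0.10, 0.10 and 0.09, so the sign turned. By limma 0 of the 32 members that passed the dim filter on these arrays were called, and 0% of all probes. In EtOH the same comparison gave -0.89 ± 0.29 for Sptbn1 (-1.57 to -0.22, limma adjusted p = 0.115) and -0.40 ± 0.24 for Capza2. It gave -1.43 ± 0.54 for Krt1 (-2.69 to -0.18, limma adjusted p = 0.179) and -0.34 ± 0.30 for Lmna. The smallest p belonged to Dnah11, which was higher in females (1.43 ± 0.38, limma adjusted p = 0.063). In EtOH 0 of 32 members passed, against 3% of all probes. With background class as a term over all arrays, 0 of 30 members and 0% of all probes passed in Air and in EtOH (limma; 337 and 291 of all probes at an unadjusted p under 0.05). The Air difference under this term was -0.52 for Sptbn1, -0.49 for Macf1 and -0.56 for Lmna, while that of Rdx stayed at -0.75 (adjusted p = 0.588). In WSR, where every female array had a high reading and every male array a low one, class and sex cannot be told apart.

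Sptbn1, Lmna and Capza2 were the members called between the sexes in both treatments, and the last 100 bases before the most upstream RefSeq start of each (build GRCm38.p6) are shown for that reason, read 5′ to 3′ along the gene's strand, with the GC box core GGGCGG (or CCGCCC, its other strand) in capitals.
Sptbn1, chr11:30219773-30219872, minus strand: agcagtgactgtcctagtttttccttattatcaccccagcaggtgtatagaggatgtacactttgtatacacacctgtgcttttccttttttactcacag
Lmna, chr3:88503353-88503452, minus strand: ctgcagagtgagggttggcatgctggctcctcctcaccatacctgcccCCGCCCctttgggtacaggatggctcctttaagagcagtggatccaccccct
Capza2, chr6:17636910-17637009, plus strand: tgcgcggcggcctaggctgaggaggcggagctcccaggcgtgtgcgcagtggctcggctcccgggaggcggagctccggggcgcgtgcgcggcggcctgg
The stretches hold 41, 61 and 80 G or C bases of 100, and 1 GC box core, that of Lmna. In the 250 bases before the start, GGGCGG was found on either strand in 33% of 27025 promoters in the table and in 14 of the 32 member genes that have an entry. Of the 6 genes called between the sexes that have an entry, 1 held it. TATAAA on either strand was found in 13% of promoters and 5 member genes, and a CArG box, the binding motif of serum response factor, in 1.41% and 2 member genes (Krtap6-1 and Myl3). None of the 6 genes held either motif.

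Between selection replicate 1 and 2, 0 of the 30 members differed in WSP and 0 of 30 in WSR (limma, background 0% in each). At an unadjusted p under 0.05 there were 1 and 3 members, against 87 and 222 of all probes. Map6 had the smallest p in WSR, with -1.03 ± 0.42 (adjusted p = 0.855), and Tuba1b in WSP, with 0.78 ± 0.36 (adjusted p = 0.999). Treatments were combined here, and EtOH mice of WSP-2 received the higher ethanol dose. The WSP contrast therefore mixes replicate line with dose.

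Many of the largest member values came from single female arrays. Of 1209 pairs of a member and an array, 31 lay at least 2 (log2) from the median of the other arrays of their group, and 30 of these were on the 15 female arrays. The same share over all probes is not given here, so the count does not set the members apart from other probes. Spots in the same place moved with them. For all 31, the median deviation of the 4 to 8 adjacent spots of the same grid, most of them for genes outside the rule, had the same sign as that of the member. For 18 of them every adjacent spot deviated by more than 1 in that direction. The second Klc1 probe on female WSR Air 2-1 was 4.79 above the median of its group, and its 8 adjacent spots were 1.64 to 5.28 above theirs. Kif4 on female WSP EtOH 2-1 was 3.56 above and its 5 adjacent spots 2.69 to 3.92. Tubb5 and Tuba1b, spotted 2 columns apart, stood 4.09 and 2.77 above their groups on female WSP Air 1-1, and Dnah11, spotted 1 row from Tuba1b, stood 2.32 above. The exception on a male array was Pdlim3 on male WSP Air 1-2, 2.18 above its group, where 1 of 5 adjacent spots deviated by more than 1.

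**Figure D4:**
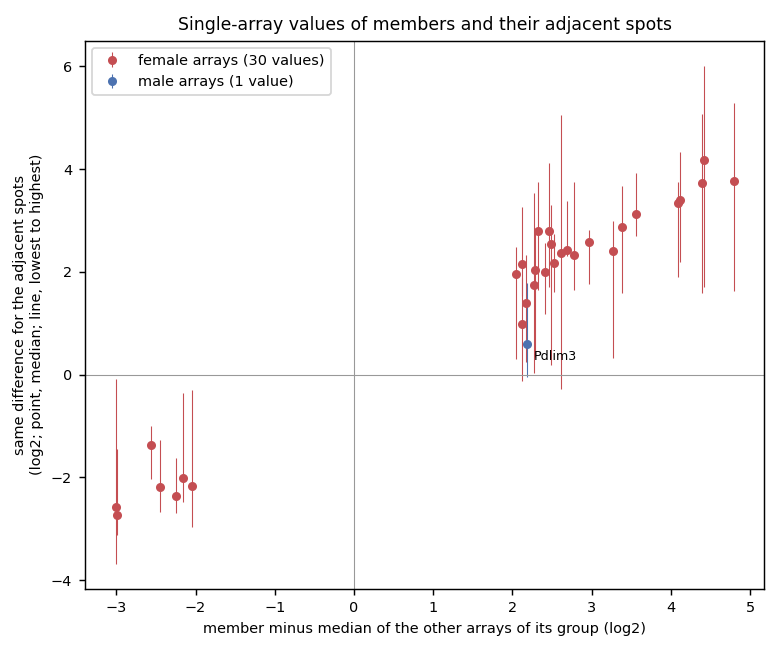
Deviation of a member from the median of the other arrays of its group (x axis, log2) against the same deviation of its adjacent spots (y axis; point, median; line, lowest to highest), for the 31 member values that deviate by at least 2. All 31 points lie in the quadrants of equal sign, 30 of them from female arrays.

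The 2 Klc1 probes, titled as the same gene, differed on single arrays. On female WSR EtOH 2-2 the first read 9.04 and the second 4.62. On female WSR Air 2-1 the first read 4.30 and the second 8.28. As an alternative chosen after seeing these values, the median deviation of the spots within 2 columns and 2 rows was subtracted from each value. The first probe on EtOH 2-2 then read 6.21 and the second on Air 2-1 read 5.20. Kif4 on female WSP EtOH 2-1 fell from 8.21 to 4.70 and Map6 on female WSR Air 2-1 from 9.50 to 6.29. The median within-group SD over the 39 members fell from 0.82 to 0.38 on female arrays and from 0.54 to 0.42 on male arrays. Before the correction the female SD was the larger for 31 of 39 members, and after it for 14. These spreads were taken over the members only and are not shown to be particular to them.

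**Figure D5:**
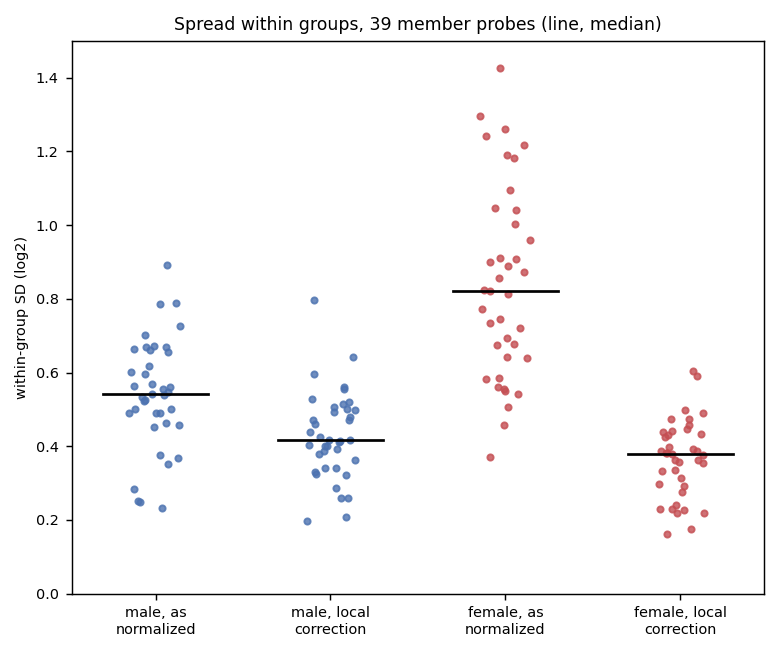
Within-group SD (log2, y axis) of each of the 39 member probes (points) on male and female arrays, as normalized and after subtraction of the local deviation; lines are medians. The female median falls from 0.82 to 0.38 and the male median from 0.54 to 0.42.

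With the local deviation subtracted, the count of members past the threshold for EtOH against Air stayed at 0 of 30 in each of the 4 sets and for the mean (limma), with 0.0517% of all probes called in female WSR and 0% in the others. At an unadjusted p under 0.05 there were 0 members in female WSP, 1 in female WSR, 1 in male WSP, 2 in male WSR and 1 for the mean. Counts over all probes at this level are not given here, so these numbers are not set against the array. Between the lines in Air females, Rdx (0.60, limma adjusted p = 0.207) and Lmna (0.18, adjusted p = 0.757) no longer passed, and Capza2 did (1.34 ± 0.35, adjusted p = 0.0314), with 2.35% of all probes. In EtOH females the first Klc1 probe passed (-1.38 ± 0.33, adjusted p = 0.0499), with 0.387% of all probes. It was above background on 0 of 4 WSP arrays, and the WSR arrays read 5.04, 5.13 and 6.21. Between the sexes, 7 of 30 members were lower in Air females, where 16.8% of all probes were called (13.2% lower), among them Capza2 (-1.52 ± 0.24, adjusted p = 0.000139), Sptbn1 (-0.83 ± 0.17) and Myl1 (-0.59 ± 0.19). In EtOH, 19.6% of all probes were called (13.7% lower), and 9 of 30 members were lower, among them Capza2 (-1.82 ± 0.25), Map6 (-0.99 ± 0.23) and Tpm2 (-0.76 ± 0.22). Krtap6-1, a hair keratin-associated protein, was higher (0.61 ± 0.20, limma adjusted p = 0.0277). It was above background on 10 of 31 arrays, and in EtOH on 2 of 4 female WSP and 0 of 3 female WSR arrays. Among low-background WSP arrays in EtOH, without the local correction, it differed by -0.10 ± 0.31. The fits with the local deviation subtracted held no term for background class. In Air, Capza2 then read 7.13 and 6.97 on the low-background female WSP arrays, against 6.88 to 7.89 in male WSP. On the high-background arrays it read 5.23 and 6.06 in female WSP and 4.56 to 5.55 in female WSR.

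Other cytoskeletal titles lie outside the rule. Of 13 structural probes (adducin 3, cortactin, internexin, villin, syntrophin and others), 10 were tested, and of 7 regulator probes 5 were tested. None of these 15 passed for EtOH against Air in any sex and line or between the lines (limma). Adducin 3, which caps actin at spectrin junctions (-0.84 ± 0.26, adjusted p = 0.0374), and the testis fascin title, an actin bundler (-0.63 ± 0.20, adjusted p = 0.0425), were lower in EtOH females than in EtOH males, and both were above background on 31 of 31 arrays. The median of the 10 structural probes was -0.40 in Air and -0.42 in EtOH for females against males, against -0.05 and -0.03 over all probes. Over the brighter probes alone (mean log2 signal above the 50th percentile) the median was -0.20 in each treatment. With background class as a term, 0% of all probes passed between the sexes (limma). Some of these titles share only a word with the cytoskeleton.

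Markers of the cell types that a cortical sample holds were read beside these values. Of 17 marker probes, glutamine synthetase, an astrocyte enzyme, transthyretin of the choroid plexus and 1 hemoglobin alpha probe were above background on 31 of 31 arrays, and the neuronal synaptotagmin 4 on 29. Glutamine synthetase was lower in EtOH females than males (-1.13, limma adjusted p = 0.0178), and proteolipid protein of myelin was lower in WSP than WSR Air females (-1.87, adjusted p = 0.0133). The summed astrocyte markers (2 probes, log2) ranged from 6.29 to 8.64 on female and from 7.70 to 8.51 on male arrays, and the neuronal ones (2 probes) from 5.81 to 8.45 and 6.65 to 7.54. The single oligodendrocyte probe ranged from 3.69 to 6.78 and from 4.31 to 6.79. The microglia set, chosen by title word (3 probes, 1 of them for a protein that binds complement component 1, q), ranged from 5.44 to 7.72 and from 5.71 to 6.91. Markers of choroid plexus and blood (5 probes) ranged from 9.50 to 11.13 and 10.33 to 10.88, and those of muscle and skin (4 probes, Krt1 and Krt10 among them) from 5.58 to 6.90 and 5.85 to 7.24. Markers of the vessel wall were not found by title. The part of cell composition in the sex differences was not tested.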

How the data were processed

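Prefrontal cortex RNA of 8 groups was measured on 32 one-colour 33P cDNA arrays, of which 31 were used. The deposited scanner tables hold, per the file headers, 1 linear intensity for each spot and 1 background reading for the whole array; the quantification software is not given in the sources used here. A deposited series table of the authors' processed values (unit score) was found to equal 8 plus 2 times the z-score of log2 intensity over the spots of an array, blank at or below background, and served as an alternative. Its sign runs with the intensity.

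From the intensities, background was corrected with normexp (limma 3.58.1, R 4.3.3; offset 50 where the median signal was at least 500, otherwise 0.1 of the median), 192 control spots were dropped, and quantile normalisation and a log2 transform followed. Probes whose mean lay above the 25th percentile were fitted with 1 mean per group (23 residual degrees of freedom), eBayes and Benjamini-Hochberg adjustment per contrast at 0.05. All 8 groups shared 1 estimate of the spread of a probe. The standard errors and p-values therefore do not follow the unlike spread of female and male arrays (median within-group SD of members 0.82 and 0.54). There were 15 contrasts, and 2 differences of line differences were added after seeing the data. The scripts were tested on simulated data. A difference from a group with no array above background is given as "at least N-fold": the bright group's mean is set against a floor averaged over the dim arrays. On each dim array the floor is the lowest signal above background or, if larger, the signal of the probe itself. The fold bounds the group means as measured and makes no allowance for the spread among arrays. No such fold is given where it was under 1.

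One member and some titles of the other lists are counted but not reported by name here. The members and lists were chosen with earlier results of these data known. Genes were named by a rule: any member for its level; with tests, every member past the threshold, the 3 members with the smallest unadjusted p in each contrast, and the 3 with the highest mean in each role class. Gene symbols were assigned by hand from the titles, and 32 of 38 genes matched a RefSeq promoter entry. Values of single arrays, of the excluded array and of members under the local correction were chosen after they were seen. Each array held a pool of its own, and the p-values therefore refer to variation among pools. The number of arrays limits the precision. EtOH and Air arrays of 1 selection replicate come from the same selected line, which pairs them by line; their deviations from the group means correlated by -0.01 on average (30 pairs, -0.31 to 0.24), against 0.02 for arrays of different replicates. The alternatives covered background correction, normalisation, filters, array weights, background class, replicate blocks, the authors' values, the local deviation and leaving out each array.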

Additional observations from a re-analysis of the deposited data

Results flagged for a closer look

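Over 29 of the 30 tested members and 7 groups of 4 arrays, the highest or lowest array stood apart from the other 3 by Dixon's criterion in 8 of 203 tests, where chance gives about 1 in 20, or 10.15. Values are log2 normalized signals. In female WSP, Mybph read 5.80 on Air 1-1 (others 3.84 to 4.00) and Kif4 read 8.21 on EtOH 2-1 (others 4.63 to 4.78). In female WSR Air, Vim read 7.83 on 1-1 (others 4.26 to 4.80), Dnal4 read 6.11 on 1-2 (others 4.00 to 4.32), and on 2-1 Capza1 read 2.51 (others 4.19 to 4.27) and the second Klc1 probe 8.28 (others 3.14 to 3.52). In male WSR EtOH, Tuba1b read 4.51 on 1-2 (others 3.71 to 3.84) and Capza2 read 7.78 on 2-2 (others 7.05 to 7.12).

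For Vim on female WSR Air 1-1 the 8 adjacent spots were 1.58 to 3.68 above the medians of their group, and for Kif4 and the second Klc1 probe the adjacent spots were raised as given above.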

How the results depend on the processing

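For EtOH against Air in each set, its mean and its 2 interactions, for the lines in males and for the selection replicates, the count of members called was 0 under every alternative run other than leaving out 1 array, which gave 0 to 1 in female WSR. For WSP against WSR in Air females (2 members), the count was 0 without background correction, with cyclic loess, with only the arrays compared, with background class as a term and with the authors' processed values (9 members testable), 1 with the local spot correction, 4 with median scaling, 5 with array weights, and 0 to 2 leaving out 1 array. For WSP against WSR in EtOH females (0 members) it was 1 with array weights and with the local spot correction, and 0 to 1 leaving out 1 array. For females against males in Air (6 members) it was 1 with cyclic loess, 2 of the 5 members testable with the authors' processed values (Macf1 lower, Map6 higher), 2 with their scaling for all spots, and 0 with background class as a term or among low-background WSP arrays; there Capza1 (0.0938), Rdx (0.0983) and Lmna (0.0991) turned sign. In EtOH (4 members) it was 0 with cyclic loess, class as a term or low-background WSP arrays, 1 of the 1 member testable with the authors' processed values (Macf1) and 10 with the local spot correction. Leaving out 1 array gave 4 to 8 in Air and 3 to 5 in EtOH. Over all probes in Air, 582 were called, 77.1% of them lower in females; cyclic loess called 104, 27.9% lower. In EtOH these were 383 (82.8% lower) and 98 (37.8%), and between lines in Air females 128 (26.6%) and 20 (75%), against 383 (10.2%) with median scaling. In Air, median scaling moved the median difference of all probes from -0.05 to -0.17. With selection replicate as a replicate block, members called stayed at 6 in Air and 2 in Air females between lines, and fell to 3 in EtOH, where Krt1 (-1.01, limma adjusted p = 0.0609) no longer passed; the block changed no other call. The causes were not tested. Spots near background limit most microtubule members.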

Other observations

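On the excluded array, female WSR EtOH 2-1, normalised together with the others, 7 members were above background. Macf1 read 8.61 (log2), against 7.34 to 8.54 on the other 3 arrays of its group, and Capza2 read 7.30, against 4.43 to 5.78. Its background reading was 310, below the 430.0 to 769 of the 7 female WSR arrays used.

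The correlation of log2 signal between neighbouring spots, taken over all spots of an array and given as a description, was 0.112 to 0.192 on male arrays and 0.124 to 0.171 on female WSP pool 2 arrays. It was 0.202 to 0.371 on female WSP pool 1 arrays and 0.265 to 0.434 on female WSR arrays, the sets in which nearly all single-array member values arose. On the excluded array it was 0.208.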
